A study of Mus musculus with 8 samples.

Results

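The comparison set the 3 alphaTC6 libraries of batch 2 against the 5 of batch 1, which together make up all 8 libraries of the series. AlphaTC6 is an established mouse line derived from pancreatic alpha cells, which make glucagon, of WT genotype per the labels, and every culture was reverse transfected with siRNA by lipid reagent for 48 h before poly(A) RNA was sequenced. The study asked which genes Klf4, a zinc finger transcription factor, regulates in these cells. Libraries were assigned by the batch named in their labels. Batch 1 held scramble siRNA replicates 1 and 2 and Klf4 siRNA replicates 1, 2 and 4. Batch 2 held scramble siRNA replicates 3 and 4 and Klf4 siRNA replicate 3. The labels do not say what a batch was, so effects of culture, transfection, extraction, library making and sequencing run cannot be told apart. The design text calls the libraries biological replicates, but nothing says whether the cultures within a batch were started separately, so p-values measure the spread between these libraries, which may be technical.

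Alpha cells make proglucagon, the product of Gcg, which the convertase encoded by Pcsk2 cuts into glucagon. The hormone is packed into dense-core granules together with granins, and is released when calcium entry drives fusion of the granules with the cell membrane. Endocrine cell lines share much of this exocytosis and adhesion machinery with neurons.

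Totals ran from 45954151 to 64185987 counts, and each library's log2 levels correlated better with every library of its own batch (Pearson's r across genes from 0.995 to 0.996) than with any of the other batch (0.984 to 0.987). Klf4 stood at 35.1 to 46.8 CPM, which are counts brought to 1 common library total, in scramble libraries and at 11.5 to 19.8 CPM in Klf4 siRNA libraries, so the siRNA labels held in both batches. Between batches, with siRNA as a term, Klf4 had a log2 difference of 0.38 that missed the threshold (edgeR quasi-likelihood, Benjamini-Hochberg adjusted p = 0.172) and passed it without Klf4 siRNA replicate 4 (log2 difference 0.46, adjusted p = 0.00925), with limma-voom (adjusted p = 0.00896) and in the scramble libraries alone (log2 difference 0.32, adjusted p = 0.000793). The insulin genes Ins1 and Ins2 had 0 counts in all 8 libraries. Pdx1 and Ucn3 of beta cells, Ptf1a, Prss2, Amy2a5 and Pnlip of acinar cells and Cftr of duct cells were also at 0. The 20 beta cell genes as a whole summed to 2107 to 2196 CPM in batch 1 and to 2575 to 2613 CPM in batch 2, without overlap. Of the 10 that could be tested, Prlr, G6pc2, Nkx6-1, Ptprn and Slc30a8 were higher and Trpm5 and Ero1lb lower, with a median log2 difference of 0.22, and Ptprn, a granule membrane protein of endocrine cells, made 1455 to 1509 CPM and 1799 to 1840 CPM of the sums. The 10 endothelial markers summed to 3.38 to 4.12 CPM in batch 1 and to 6.98 to 8.44 CPM in batch 2, of which Plvap alone made 5.82 to 7.35 CPM. The 12 duct markers summed to 22.6 to 25.9 CPM and to 25.6 to 36.2 CPM, and the 16 acinar markers to 45.1 to 55.4 CPM and to 36.2 to 38.7 CPM. The 12 fibroblast markers summed to 21.5 to 30.5 CPM and to 22.8 to 25.1 CPM, and the 11 immune markers to 5.38 to 6.18 CPM and to 5.10 to 5.95 CPM. Whether stray cells had a part in any difference was not tested. Scramble replicate 4 stood apart in ribosomal RNA signs: Gm42418, an annotation that overlaps ribosomal RNA sequence, was at 16420 CPM there, against 916 to 6568 CPM in batch 1 and 766 and 3152 CPM in scramble replicate 3 and Klf4 siRNA replicate 3. Without that library Gcg differed by 2.80, Chgb by 0.61, Ttr by 0.58 and Penk by 8.47 on the log2 scale.

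The batches differed at many genes, mostly by little, and the large differences were mainly rises in batch 2. Of 16739 genes tested, 5490 (32.8%) passed an edgeR adjusted p of 0.05, 2858 higher in batch 2 (17.1%) and 2632 lower (15.7%). The median absolute log2 difference of these genes was 0.24. A difference of at least 1 on the log2 scale was reached by 637 genes in the higher direction (3.81% of those tested) and by 186 in the lower direction (1.11%), and a difference of at least 2 by 231 and 26 genes. Many of the genes with a difference of at least 1 were weakly expressed: 256 of the 637 and 101 of the 186 had a mean under 1 CPM in the higher batch, and a further 232 and 54 one of 1 to 5 CPM. Only 42 and 10 of them were among the 7983 tested genes with at least 20 CPM. The libraries of batch 2 lay wholly above or wholly below those of batch 1 for 4244 of the 5490 genes, and for 29.6% of all tested genes. Without scramble replicate 4, 4945 genes differed, 4628 of them among the 5490. With library size alone as the scaling, 40.2% of the called genes were higher in place of 52.1%. A fit of the Klf4 siRNA libraries alone, with 1 library in batch 2, gave 2138 genes.

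Among these genes, Gcg (ENSMUSG00000000394) had the largest rise in CPM. Its levels were 1257, 1244, 1065, 1074 and 1232 CPM in scramble replicates 1 and 2 and Klf4 siRNA replicates 1, 2 and 4 of batch 1. They were 8904, 8826 and 7635 CPM in scramble replicates 3 and 4 and Klf4 siRNA replicate 3 of batch 2. The batches did not overlap, and the spread within each was small beside the gap between them. The fitted difference was 6.96-fold, a log2 difference of 2.80 ± 0.042 (SE, 8 libraries; edgeR adjusted p = 1.05e-17). Per kilobase of exon, Gcg moved from 786 CPM, rank 16 among the tested genes, to 5659 CPM, rank 6. The difference was 2.83 within the scramble libraries and 2.77 within the Klf4 siRNA libraries. Batch 2 is therefore the glucagon-high set of cultures, with either siRNA.

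Genes beside Gcg on chromosome 2 rose with it. Gcg lies at 62474530 to 62483650 of chromosome 2 (GRCm38, minus strand), in a run of 6 consecutive tested protein-coding genes that were all higher in batch 2 by at least 1 on the log2 scale. The run holds, in order, Slc4a10, a sodium-driven bicarbonate transporter, Gcg, Ifih1, the cytosolic sensor of viral RNA also called MDA5, Gca, a calcium-binding protein of neutrophil granules, Grb14, an adaptor of the insulin receptor, and Cobll1. For the 4 genes closest together, the 30 bases from 40 to 11 before the more upstream of the RefSeq and GENCODE starts are shown, to set side by side the starts of genes that moved together. They come from the RefSeq promoter windows of GRCm38.p6, 5′ to 3′ on the strand of each gene, and capitals mark the motif TATAAA and each CG pair.
Slc4a10: ggatctctcttacCGgcccaaggattcaag
Gcg: aacagcctggagagcaTATAAAagcacagc
Ifih1: gcctcctccaccctcaCGaaacttattctc
Gca: gggcttgctctggcaggggtgggcctgtgg
These stretches are chr2:62046422-62046451 (plus strand, Slc4a10), chr2:62483664-62483693 (minus strand, Gcg), chr2:62646266-62646295 (minus strand, Ifih1) and chr2:62664245-62664274 (plus strand, Gca). TATAAA stands before Gcg and in none of the other 3. It was in 2.08% of the stretches from 40 to 11 bases before all 32851 RefSeq starts on the strand of the gene, which for Slc4a10 and Gca are not the stretches shown, as their GENCODE starts lie further upstream, and in 2.66% on either strand. A match is a description of these letters only.

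Slc4a10 was at 6.14, 5.503, 4.79, 4.81 and 5.38 CPM in batch 1 and at 23.01, 21.8 and 20.96 CPM in batch 2, a log2 difference of 2.00 (edgeR adjusted p = 1.03e-15). Gca was at 1.27, 1.19, 1.22, 1.904 and 0.868 CPM and at 8.45, 9.25 and 8.765 CPM, a log2 difference of 2.77 (adjusted p = 2.53e-08). Neither pair of batches overlapped. Ifih1 was at 0.519, 0.680, 0.731, 0.692 and 0.472 CPM and at 3.49, 4.07 and 2.94 CPM, a log2 difference of 2.44 (adjusted p = 4.94e-11). Cobll1 rose by 1.47 and Grb14, under 1 CPM in every library, by 1.63. Within 3 Mb of Gcg to either side, a window chosen after the values were seen, 16 of 25 protein-coding genes could be tested, of which 10 were higher and 1, Dapl1, lower. Dpp4 and Fap, which flank Gcg, had at most 4 counts in any library, as had Kcnh7 and Fign. Psmd14, a proteasome subunit gene on the proximal side, had a log2 difference of 0.065 (adjusted p = 0.109, and 0.0453 when only genes with a mean of at least 5 CPM were tested). The median over all tested genes of chromosome 2 was 0.002, so the rise was not one of the whole chromosome.

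**Figure D1:**
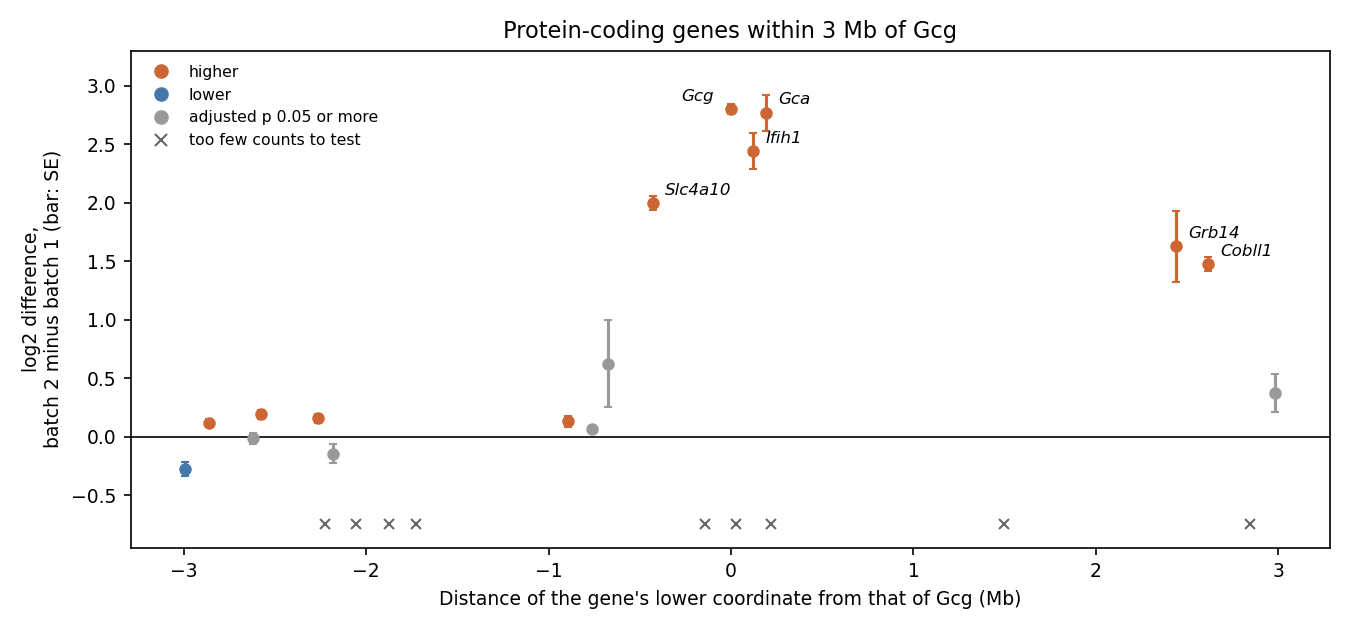
Log2 difference between batches (batch 2 minus batch 1, with its standard error) of the tested protein-coding genes within 3 Mb of Gcg against distance from Gcg in Mb, with crosses for genes with too few counts to test. The 6 genes from Slc4a10 to Cobll1 lie between 1.47 and 2.80, whereas the other tested genes lie between -0.28 and 0.62.

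The rest of the glucagon granule moved far less than its hormone. Of 11 tested genes of prohormone processing, 4 rose (36.4%) and 0 fell, where 17.1% of all tested genes were higher and 15.7% lower, the shares against which all counts of list members stand, with a median log2 difference of 0.07 beside 0.0004 over all tested genes. Pam, the enzyme that amidates peptide ends, was at 1002, 1044, 1095, 1173 and 1299 CPM in batch 1 and at 1882, 1890 and 1880 CPM in batch 2, a log2 difference of 0.79 (edgeR adjusted p = 1.85e-05). Within batch 1 Pam spread from 1002 to 1299 CPM, still below every library of batch 2. Cpe, the carboxypeptidase that trims cut peptides, rose by 0.32, Scg5, the chaperone of the Pcsk2 convertase, by 0.29, and Ctsl, a cathepsin, by 0.28. Pcsk2 itself, which makes glucagon from proglucagon, was at 2691 to 2823 CPM in batch 1 and at 2814 to 2940 CPM in batch 2, with a log2 difference of 0.071 (adjusted p = 0.0893, and 0.0414 without Klf4 siRNA replicate 4).

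Of 18 tested granins and granule proteins, 10 rose and 5 fell, with a median of 0.14. Chgb, the granin given as an alpha cell marker, was at 314, 297, 266, 269 and 278 CPM in batch 1 and at 460, 489 and 419 CPM in batch 2, with a log2 difference of 0.63 (edgeR adjusted p = 1.06e-12). Ttr, transthyretin, a thyroid hormone carrier that alpha cells make, was at 388, 396, 414, 436 and 495.5 CPM and at 617.5, 631 and 639 CPM, a log2 difference of 0.60 (adjusted p = 6.93e-05). Both markers were higher in every batch 2 library than in any of batch 1, by 1.55-fold and 1.52-fold. Scg2, the most abundant of the risen granins, went from 1775 to 1934 to 2450 to 2570 CPM (log2 difference 0.47). Scgn, the calcium sensor secretagogin, rose most of the list, from 6.05 to 6.48 to 16.2 to 19.4 CPM (log2 difference 1.47, adjusted p = 2.19e-13). Chga, the granin with the highest level, fell slightly, from 3646 to 3949 to 3417 to 3755 CPM with overlap between the batches (log2 difference -0.12, adjusted p = 0.00799, 0.0897 without Klf4 siRNA replicate 3 and 0.181 by the likelihood ratio test). Granule genes thus moved in both directions, and none of those tested approached the ratio of Gcg.

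**Figure D2:**
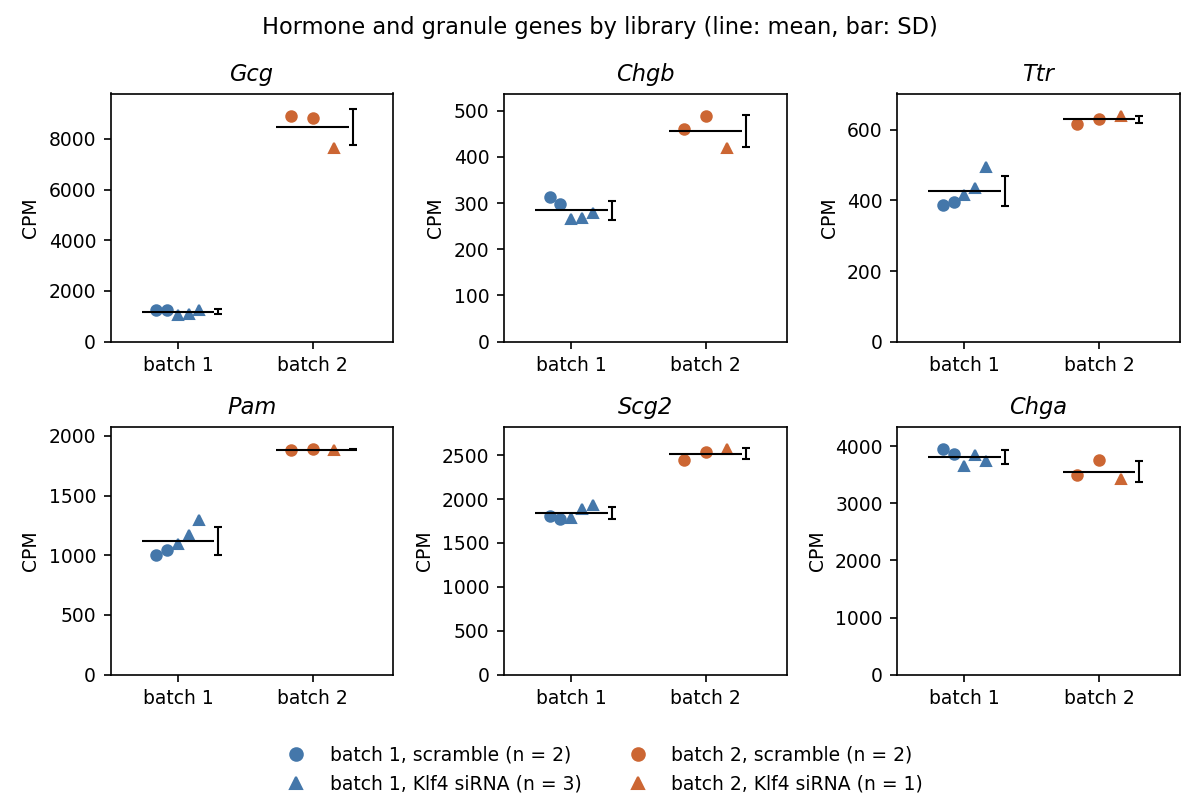
Levels in CPM of Gcg, Chgb, Ttr, Pam, Scg2 and Chga in each library by batch, with circles for scramble and triangles for Klf4 siRNA, a line at the mean and a bar for the SD. Gcg stands at 1065 to 1257 CPM in batch 1 and at 7635 to 8904 CPM in batch 2, and the batches overlap for Chga only.

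Among peptide hormones and neuropeptides, 7 of 19 tested genes rose and 2 fell. Penk, the enkephalin precursor, had the largest log2 difference of all genes named here, 8.51 (edgeR adjusted p = 2.30e-10). It was at 0.08955, 0, 0.142, 0.156 and 0.0189 CPM in batch 1 and at 29.9, 33.4 and 30.7 CPM in batch 2. Penk RNA was thus near the limit of detection in batch 1 and clearly present in every batch 2 library, and 1 annotation overlaps its exons on the other strand. Bdnf, a neurotrophin whose exons also overlap an annotation on the other strand, rose from 1.125 to 1.63 to 3.32 to 4.74 CPM. Adm2, an adrenomedullin-like peptide, rose by 0.66.

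Alpha cell factors and genes moved in both directions. On the list of alpha cell factors and genes, 8 of 25 tested genes were higher and 5 lower, and the 3 rises of at least 1 were Gcg, Tm4sf4, a tetraspanin-like surface protein, and Cltrn, collectrin. Fev, an ETS factor of endocrine and serotonergic cells, fell from 175.5 to 196 to 116 to 133 CPM (log2 difference -0.55). Pou3f4, a POU factor that acts on the Gcg promoter, fell by 0.16. Irx1 rose by 0.13, with batch 2 at 201 to 213 CPM above batch 1 at 183 to 190 CPM. Pax6, an activator of Gcg, had a log2 difference of 0.033 (adjusted p = 0.449).

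Among the 24 tested pan-islet transcription factors, 8 were higher and 6 lower. Nkx6-2, a homeobox factor related to the beta cell factor Nkx6-1, rose from 3.72 to 5.099 to 12.8 to 17.6 CPM (log2 difference 1.68), and Gata6 from 1.65 to 2.36 to 5.43 to 5.49 CPM. Insm1, a zinc finger factor of endocrine differentiation, rose by 0.54. Prox1 fell by 0.58 and Rfx6 by 0.38, both factors of islet development. Annotations on the other strand overlap exons of Nkx6-2, Gata6 and Prox1. Under the local median scaling, which takes out the shift of neighbouring genes, 7 of the alpha cell genes were higher and 7 lower.

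The largest rises by ratio included several genes known from neurons, such as Nexmif, B3gat1 and Syt1. Of the 15 largest among genes of at least 5 CPM with no overlap between batches, all 15 were under 2 CPM in every batch 1 library. Nexmif, an X-linked regulator of neurite outgrowth, was at 0.08955, 0.149, 0.122, 0.121 and 0.0755 CPM in batch 1 and at 9.43, 8.56 and 9.92 CPM in batch 2, a log2 difference of 6.40 (edgeR adjusted p = 6.38e-18). B3gat1, the glucuronyltransferase that builds the HNK-1 carbohydrate of neural adhesion proteins, was at 0.322, 0.319, 0.183, 0.104 and 0.2075 CPM and at 20.4, 22.7 and 16.01 CPM, a log2 difference of 6.32 (adjusted p = 5.21e-19). Syt1, the calcium sensor of fast transmitter release, was at 0.770, 0.467, 0.589, 0.831 and 0.623 CPM and at 19.01, 18.9 and 17.3 CPM, a log2 difference of 4.76 (adjusted p = 5.63e-18). These 3 genes were under 1 CPM in every batch 1 library and at 8.56 CPM or more in every batch 2 library. Frrs1l, a protein needed for assembly of AMPA receptors, rose by 5.21, Mdga2, a binder of neuroligins, by 5.07, Clstn2, a calsyntenin, by 3.99, and Ntng1, the adhesion protein netrin-G1, by 3.90. The others were Pla2g7, the secreted hydrolase of platelet-activating factor (5.52), Tll1, a tolloid-like protease (4.82), Zdhhc23, a palmitoyltransferase (4.40), Lrrn1 (3.83), Phactr2 (3.61), Gpr158, a glycine-sensing receptor (3.59), and Arhgap36, an inhibitor of protein kinase A (3.49). Annotations on the other strand overlap exons of B3gat1, Pla2g7, Mdga2 and Gpr158.

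**Figure D3:**
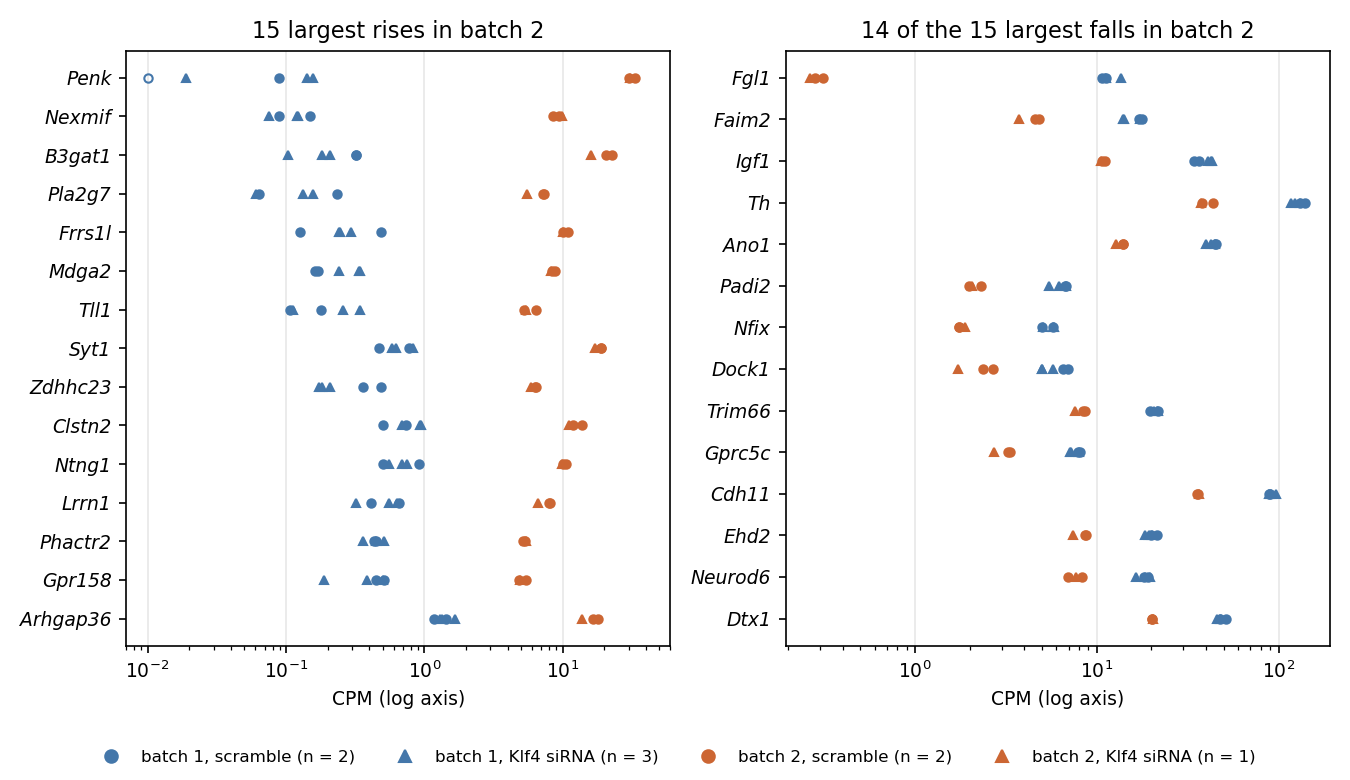
Levels in CPM on a log axis in each library, of the 15 genes that rose most and 14 of the 15 that fell most in batch 2, with circles for scramble, triangles for Klf4 siRNA, and an open symbol at 0.01 for a library with 0 counts. The batches are apart for every gene plotted, as the choice of genes requires, and each gene reached at least 5 CPM in its higher batch by the same choice.

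Neuronal adhesion and synapse genes were higher more often than all genes: 32 of 59 tested (54.2%, against 17.1% of all) rose, 15 of them by at least 1, and 13 fell, with a median of 0.22. Nlgn1, a postsynaptic neuroligin, went from 0.0609 to 0.225 to 2.795 to 3.06 CPM (log2 difference 4.46). Cntn1, a contactin, went from 3.37 to 4.68 to 18.3 to 21.1 CPM (log2 difference 2.38). Cadm3 and Lrrc4, further synaptic adhesion genes, rose by 3.66 and 3.55, and Dlg2, a postsynaptic scaffold, by 1.94. The adhesion gene Chl1 went the other way and was the largest fall of the list by CPM, from 263 to 285 to 136 to 147 CPM (log2 difference -0.97, edgeR adjusted p = 3.83e-15).

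Cadherins and protocadherins were higher for 32 of 66 tested genes and lower for 11, with a median of 0.28. Pcdh7 was the most abundant of the large rises, from 1.34 to 1.73 to 14.9 to 17.9 CPM (log2 difference 3.36). Cdh12 rose by 3.95, Pcdhac2 by 3.80 and Cdh20 by 2.09. On chromosome 18, 12 consecutive tested genes of the clustered protocadherins, from Pcdhac2 through Pcdhb13, were all higher, by 0.50 to 3.80. These genes have close copies, so the counting of reads that map to several of them could blur the values of single members. Cdh11 fell, from 88.3, 90.2, 88.4, 97.2 and 91.02 CPM to 36.1, 35.7 and 36.3 CPM (log2 difference -1.33, edgeR adjusted p = 1.12e-16).

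Vesicle fusion machinery was higher for 21 of 41 tested genes (51.2%) and lower for 5. Most steps were small, with a median of 0.11: Snap25, Stx1a, Nsf and the complexins Cplx1 and Cplx2 were all among the 21. The 3 rises of at least 1 were Syt1, Sv2b, a vesicle glycoprotein (0.121 to 0.183 to 2.05 to 2.9 CPM), and Vamp8, a SNARE protein of exocytosis (0.208 to 0.322 to 2.35 to 2.74 CPM). Of the 5 that fell, Stx3 had the largest difference, -0.59. With library size alone as the scaling, 17 were higher and 6 lower.

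Receptors moved in both directions, 13 of 48 tested higher and 13 lower, but with large single differences. Calcr, the calcitonin receptor, was at 24.7, 29.1, 23.7, 26.8 and 27.2 CPM in batch 1 and at 86.7, 81.9 and 79.97 CPM in batch 2, a log2 difference of 1.64 (edgeR adjusted p = 6.28e-11). Prlr, the prolactin receptor, was at 9.13, 11.98, 12.8, 15.7 and 16.6 CPM and at 43, 45.97 and 40.7 CPM, a log2 difference of 1.79 (adjusted p = 0.00103). Every batch 2 library was above every batch 1 library for both. Cckbr, a receptor of cholecystokinin and gastrin, went from 0.203 to 0.485 to 3.79 to 3.95 CPM, and Ghsr, the ghrelin receptor, from 0.8775 to 1.28 to 2.79 to 2.92 CPM.

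Of 56 tested genes of cAMP and calcium signalling, 21 were higher, 6 by at least 1, and 10 lower. Gnai1, an inhibitory G protein subunit, rose by 3.20, and Ryr2, a calcium release channel of the endoplasmic reticulum, went from 4.59 to 6.055 to 14.6 to 15.7 CPM (log2 difference 1.53). Pde5a, a phosphodiesterase of cyclic GMP, fell by 1.33. Gnas, the stimulatory G protein subunit, was higher by only 0.19. At its high level this was still one of the 8 largest rises in CPM, from 4884 to 5294 to 5660 to 5719 CPM. Annotations on the other strand overlap exons of Gnas. Among potassium channels 12 of 39 tested were higher (30.8%) and 8 lower (20.5%), beside 17.1% and 15.7% of all genes.

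The largest falls named here are, like the rises, those of genes with at least 5 CPM in the higher batch, here batch 1. Fgl1, a secreted fibrinogen-like protein, had the largest difference: it was at 11.3, 10.7, 11.2, 11.04 and 13.6 CPM in batch 1 and at 0.281, 0.311 and 0.266 CPM in batch 2, which is 2.55% of the batch 1 level (log2 difference -5.30, edgeR adjusted p = 4.43e-17). Th, tyrosine hydroxylase, which makes the dopamine precursor, was at 132, 140, 124, 132 and 117 CPM and at 37.96, 43.5 and 37.4 CPM, or 30.01% (log2 difference -1.74, adjusted p = 4.59e-12). Igf1, insulin-like growth factor 1, was at 34.5, 36.7, 40.8, 42.5 and 43.2 CPM and at 11.04, 10.65 and 10.5 CPM, or 28.2% (log2 difference -1.83, adjusted p = 1.79e-15). For these 3 genes the highest batch 2 library was below the lowest of batch 1. Ano1, a calcium-activated chloride channel, was left at 30.55% and Faim2, an inhibitor of Fas-induced cell death, at 26.1%. Further large falls were Padi2, an arginine deiminase (-1.62), Nfix, a nuclear factor I gene (-1.60), Dock1, a Rac activator (-1.48), Trim66 (-1.36), Gprc5c (-1.35), Ehd2, a caveolar ATPase (-1.30), Neurod6, a neuronal helix-loop-helix factor (-1.28), Dtx1 (-1.27) and Cdh11. Annotations on the other strand overlap exons of Padi2 and Nfix.

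Notch pathway genes included 4 of those with a fall of at least 1. Of 21 tested, 6 fell and 3 rose, and 5 in all without Klf4 siRNA replicate 3. Dtx1, which encodes the Notch regulator deltex, fell from 47.75, 51.35, 45.9, 48.1 and 47.6 CPM to 20.02, 20.2 and 20.3 CPM. The ligand Dll1 fell by 1.08, the effector Heyl by 1.63 and the receptor Notch1 by 1.06, each from levels under 5 CPM. Heyl was at only 0.255 to 0.491 CPM in batch 1 and lost its call without Klf4 siRNA replicate 3 (edgeR adjusted p = 0.0601). The 3 Notch pathway genes that rose were Dll3, Hes1 and Rfng, so the pathway did not move in 1 direction. Homeobox genes fell more often than they rose, 20 against 11 of 64 tested (31.2% lower, against 15.7% of all), and 9 fell by at least 1. The neighbours Hoxa2 and Hoxa3 both fell, with Hoxa3 at 2.15 to 2.78 CPM in batch 1 and at 1.14 to 1.27 CPM in batch 2, and Hoxa5 fell from 12.5 to 16.85 to 7.36 to 7.58 CPM. Lhx2, a LIM homeobox gene, rose from 0.106 to 0.170 to 1.404 to 3.19 CPM.

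In 3 lists of metabolism and organelles, more members were higher than lower, mostly by small steps, and many did not pass the test. Of 81 tested nuclear genes of the respiratory chain, 42 were higher (51.9%) and 4 lower, with a median of 0.08. Of the lower, Cox8b, under 2 CPM in every library, fell by 1.33. Ndufb3, of complex I, rose by 0.32 and Cox5b, of complex IV, by 0.21, from 448 to 464 to 501 to 548 CPM. This count was not stable: it was 19 higher and 7 lower with library size alone as the scaling, and 28 and 30 in all, in place of 46, without scramble replicate 1 or 2. All 25 cholesterol synthesis genes were tested, 13 higher and 0 lower, with a median of 0.26. Pmvk, phosphomevalonate kinase, went from 55.3 to 68.5 to 73.04 to 80.1 CPM. Msmo1 and Sqle, 2 further enzymes of the pathway, had differences (0.46 and 0.36, edgeR adjusted p = 0.0436 and 0.0364) that each lost their call when any of several single libraries was left out, scramble replicate 3, scramble replicate 4 and Klf4 siRNA replicate 3 among them. Lysosomal and V-ATPase genes were higher for 26 of 62 and lower for 3, among them Gaa, acid glucosidase (1385 to 1469 to 1714 to 1847 CPM), and Grn, progranulin (0.42).

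MHC class I and antigen presentation genes rose for 11 of 17 tested (64.7%) and fell for 0, with a median of 0.48. B2m, the light chain shared by class I molecules, was at 17.5, 16.3, 18.1, 17.6 and 17.1 CPM in batch 1 and at 33.97, 34.1 and 34.3 CPM in batch 2, a log2 difference of 0.99 (edgeR adjusted p = 2.19e-13). H2-K1, a classical heavy chain, rose by 0.53 and Tapbp, tapasin, by 0.51, and the transporters Tap1 and Tap2 and the proteasome subunits Psmb8 and Psmb10 were also higher. H2-Q6 and H2-Q7, close copies whose reads may be shared, rose by 1.05 and 1.74. Of 16 tested interferon response genes, 6 were higher and 1 lower, and Ifih1 had the largest difference.

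Several lists of cell division and chromatin genes held more lower than higher members. Of 46 tested mitosis genes, 14 fell and 1 rose, with a median of -0.05. Kif20b, a mitotic kinesin, fell by 0.27 and Incenp, of the chromosomal passenger complex, by 0.17. Without Klf4 siRNA replicate 3, 5 mitosis genes differed in place of 15. Cyclins, CDKs and their inhibitors were lower for 10 of 17 and higher for 2, among them Ccng2, cyclin G2 (12.4 to 14.3 to 10.3 to 10.9 CPM, log2 difference -0.33), and Rbl1, the retinoblastoma-like protein p107 (-0.19). This list mixes opposed roles: the lower members include Ccnd1, Ccnd3 and Cdk4, which drive the cell cycle, and Ccng2, Rbl1, Cdkn2b and Cdkn1b, which restrain it. Cdkn1c, an inhibitor under 1 CPM in every library, was higher, as was Cdkn1a, another, whose call (adjusted p = 0.0267) was lost without scramble replicate 1, 2 or 3 or Klf4 siRNA replicate 1 (0.0505 to 0.0845). Of 33 tested DNA methylation and polycomb genes, 14 fell and 2 rose. Ezh2, the polycomb methyltransferase, went from 170 to 181 to 146 to 152 CPM (log2 difference -0.23). Zinc finger genes of the Zfp series were lower for 86 of 349 tested (24.6%) and higher for 37, with a median of -0.08, and 76 in all in place of 123 without scramble replicate 1 or Klf4 siRNA replicate 3. S phase genes (5 higher, 8 lower of 45), cytosolic ribosomal protein genes (4 and 5 of 79) and replication-dependent histones (1 and 1 of 39) had shares of 11.1% and 17.8%, 5.06% and 6.33%, and 2.56% and 2.56%, near or below those of all genes. Without scramble replicate 4, 16 ribosomal protein genes and 6 of these histones were called in place of 9 and 2. These counts also moved with library size alone as the scaling. It gave 2 higher and 13 lower S phase genes, 3 and 19 ribosomal protein genes and 0 and 1 histones, beside 2244 and 3334 of all genes. Of 10 tested signs of RNA quality, nuclear RNA and ribosomal RNA, Meg3 alone passed the test. Their sum ran from 2243 to 8685 CPM in batch 1 and from 2036 to 19400 CPM in batch 2, with a median log2 difference of 0.32, and the part of this spread in the counts above was not tested.

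**Figure D4:**
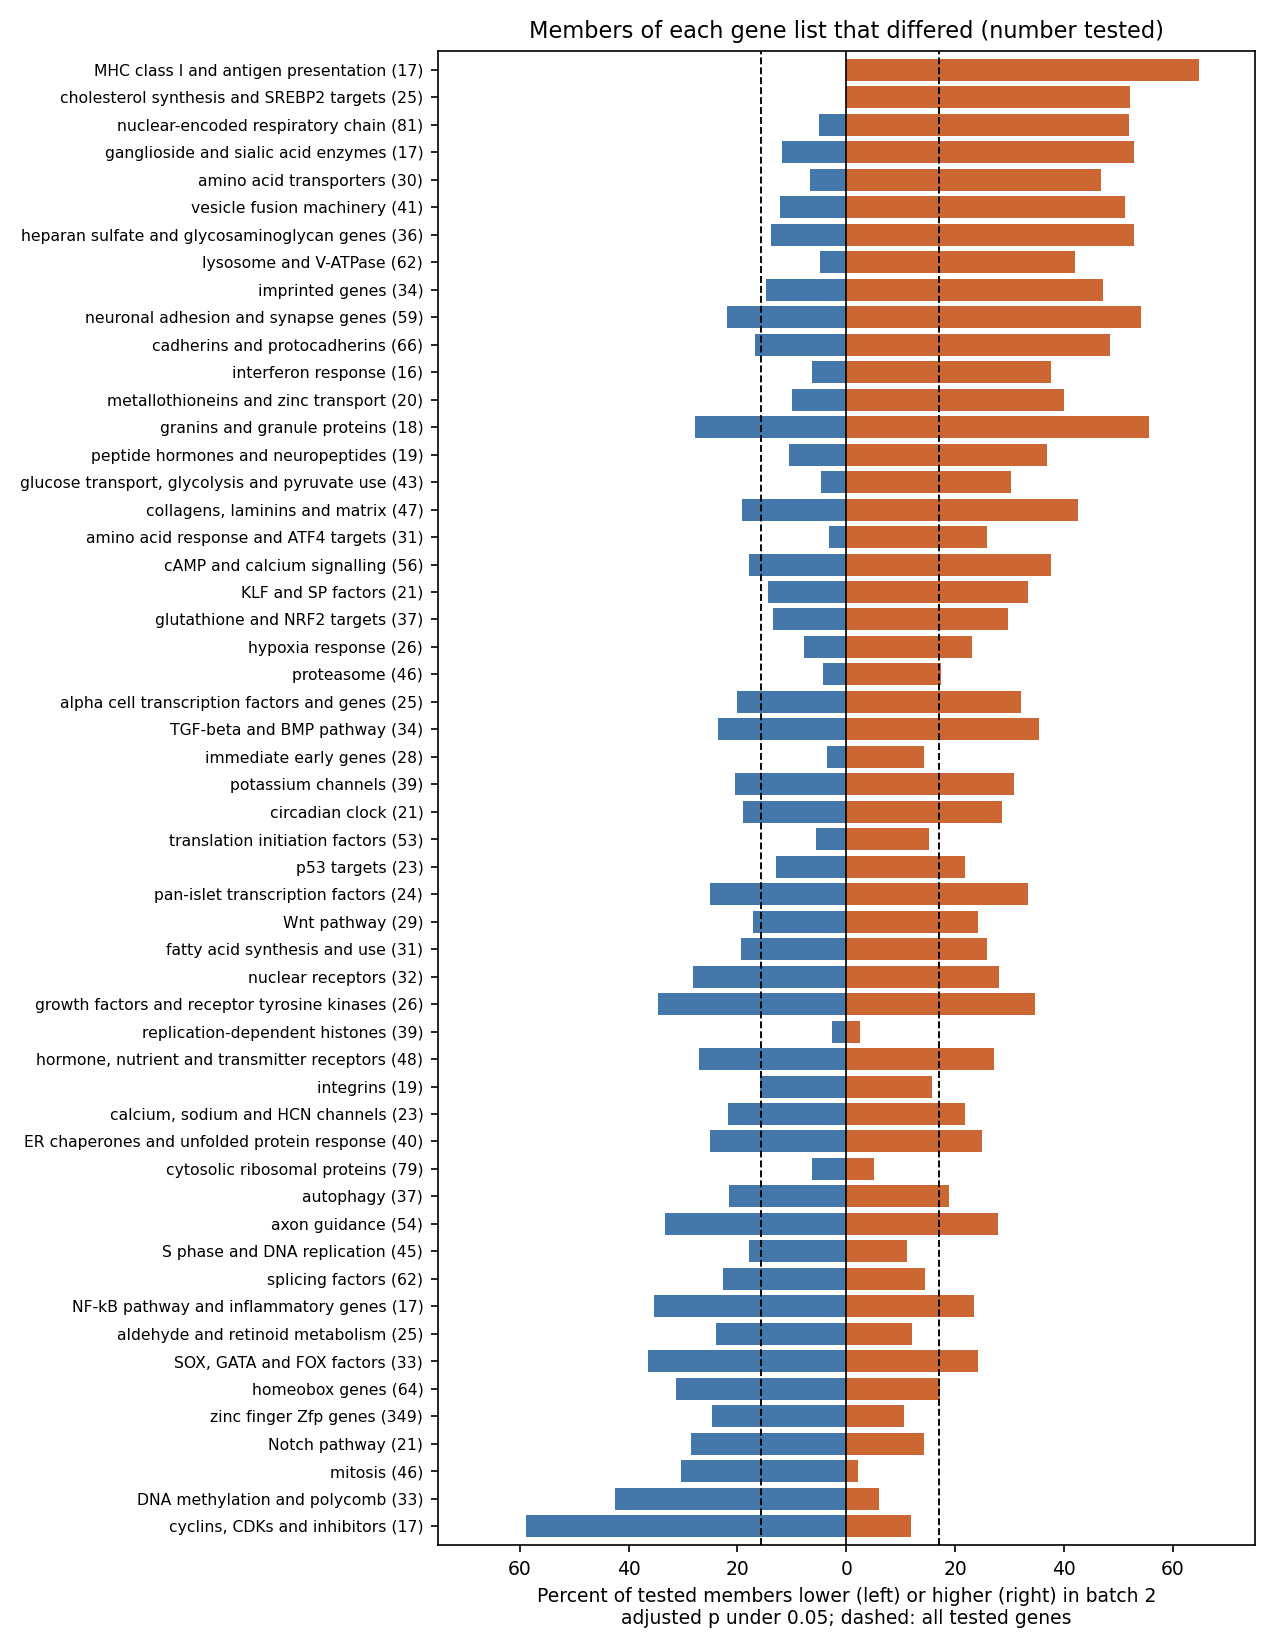
Percent of the tested members of each gene list (with at least 15 tested) that were lower (left) or higher (right) in batch 2 at an edgeR adjusted p under 0.05, sorted by the difference, with dashed lines at the shares of all tested genes, 15.7% and 17.1%. MHC class I genes stand at the top with 64.7% higher and 0% lower, and cyclins, CDKs and inhibitors at the bottom with 11.8% higher and 58.8% lower.

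Imprinted genes, which are expressed from 1 parental allele, were higher for 16 of 34 tested (47.1%) and lower for 5, and 8 rose by at least 1. The noncoding RNAs of the Dlk1-Dio3 region moved together. Meg3 was at 4.585, 3.99, 5.73, 4.43 and 5.02 CPM in batch 1 and at 19.8, 18 and 19.3 CPM in batch 2 (log2 difference 2.04, edgeR adjusted p = 5.58e-14). Rian, transcribed from the same strand, was at 5.77, 6.71, 6.5, 5.78 and 7.698 CPM and at 27.1, 27.2 and 27.7 CPM (log2 difference 2.10, adjusted p = 6.78e-14), and Mirg, under 2 CPM, rose by 2.09. Meg3, Rian and Mirg thus rose by nearly the same ratio. Ndn, necdin, went from 23.6 to 25.9 to 55.3 to 58.8 CPM, Asb4 from 3.23 to 4.09 to 7.835 to 8.37 CPM and Mest from 2.11 to 3.51 to 4.33 to 5.91 CPM, although Mest lost its call in the Klf4 siRNA libraries alone (log2 difference 0.67, adjusted p = 0.0833).

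Some neighbouring genes moved together elsewhere too. A run was taken as at least 3 consecutive tested protein-coding genes that differed the same way by at least 0.5, a definition made after the values were seen. There were 27 runs, 22 higher and 5 lower, which held 102 of the 1332 protein-coding genes with such a difference. Besides the Gcg run and the protocadherins, they included the complement genes C1rl, C1ra and C1s1 on chromosome 6 (log2 differences from 1.73 to 2.55) and Ly6e, Ly6a and Ly6c1 on chromosome 15 (1.34 to 4.18). Of the 5 lower runs, 1 held Irx5, Irx6 and Ces5a on chromosome 8 (-1.57 to -0.71). Whole chromosomes moved little by comparison. The median log2 difference was -0.12 on chromosome 19, -0.05 on chromosome 6 and 0.07 on chromosome 1, and closer to 0 on the other chromosomes. With the median of each chromosome taken out of every library, 5311 genes differed, 90% of the 5490 among them, and with the median of the 50 tested genes on either side taken out, 5192 genes, with 84.1%.

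Some genes were near the limit of detection in batch 1 and above it in batch 2. In batch 2, 5 genes stood at 1 CPM or more in every library while no batch 1 library had more than 3 counts: Lmo3, a LIM domain cofactor, Map10, a microtubule-associated protein, Crtap, of collagen hydroxylation, Samsn1 and Cbln2, a synaptic organizer. Samsn1 was at 3.07, 3.52 and 3.83 CPM in batch 2 and Cbln2 at 4.71, 4.99 and 4.098 CPM, against at most 0.052 CPM of either in batch 1. There were 0 genes with the reverse pattern. By a looser rule, under 0.5 CPM in every library of 1 batch and at least 2 CPM in every library of the other, 35 genes were on in batch 2 and 1, Fgl1, was on in batch 1.

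The batch difference was also examined within each siRNA. The interaction of batch and siRNA passed an edgeR adjusted p of 0.05 for 0 genes, with 565 at an unadjusted p under 0.05 and a smallest adjusted p of 0.627. DESeq2 and limma-voom gave 0 genes as well, whereas 12 passed without scramble replicate 3 and 17 with no filter on low counts. Batch 2 had 1 Klf4 siRNA library, which limits this test. When the scramble libraries were fitted alone (2 against 2), 4490 genes differed, and 4454 of them had a value in the Klf4 siRNA libraries, which share no library with the first set. Of these, 4343 (97.5%) differed in the same direction there, against 66.4% of the genes not called in the scramble libraries. Of 789 genes with a difference of at least 1 in the scramble libraries, 771 kept their direction. Penk, B3gat1, Syt1, Th and Fgl1 differed by 8.87, 5.92, 4.90, -1.74 and -5.06 with scramble siRNA and by 7.95, 6.36, 4.61, -1.73 and -5.30 with Klf4 siRNA. Differences of opposite sign among the 5490 called genes numbered 0, which the joint fit favours by its choice of genes.

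**Figure D5:**
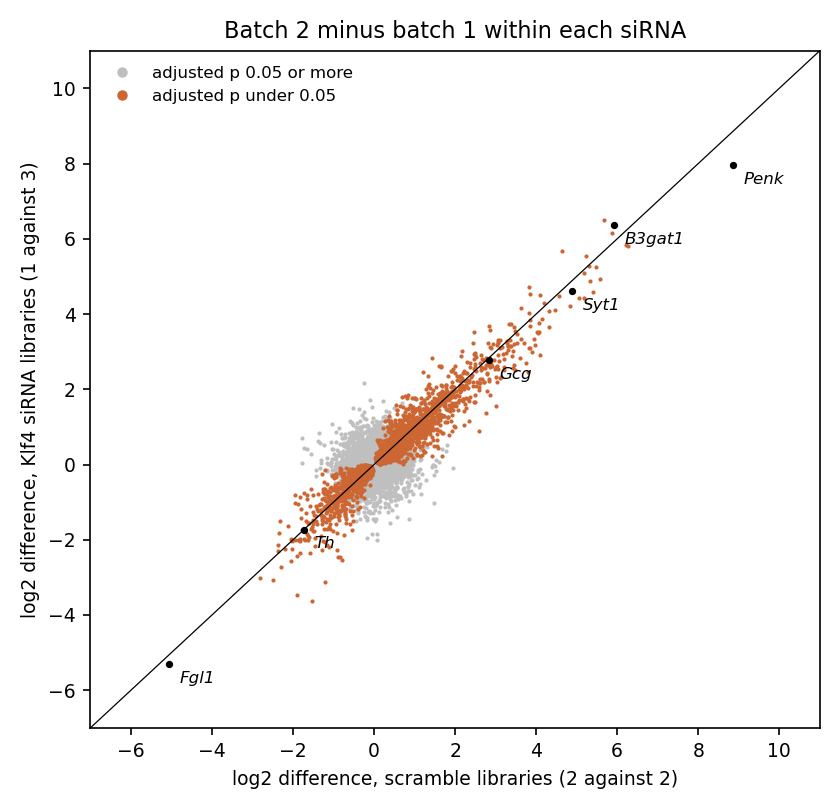
Log2 difference between batches for each tested gene in the scramble libraries (2 against 2, x axis) and in the Klf4 siRNA libraries (1 against 3, y axis), in orange where the joint fit passed an adjusted p of 0.05, with the line of equal differences. Gcg lies at 2.83 and 2.77, Penk at the top right and Fgl1 at the bottom left.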

How the data were processed

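The authors deposited raw gene counts of the 8 libraries in 1 table. The table's name mentions cutadapt. The submitters' processing notes name FastQC, STAR, featureCounts, DESeq2 and the build mm10, without roles, versions or use of strand. Overlaps with annotations on the other strand are not given above for every gene named. The library kit was Tecan Universal Plus mRNA-seq, per the labels' protocols, which speak of isolated islets although all samples are labelled alphaTC6. All 55536 gene identifiers matched GENCODE release M21 (GRCm38), and 0 columns were left unmapped. Totals ran from 45954151 to 64185987 counts; errors come from the differences among libraries. Without molecular identifiers, counts may include PCR duplicates.

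From these counts, 16739 genes were kept with filterByExpr on batch (a filter on siRNA would leave 16333 and drop genes expressed in the 3 batch 2 libraries alone). A robust quasi-likelihood fit with TMM factors (0.9643 to 1.025), batch and siRNA as terms and 5 residual degrees of freedom was made in edgeR 4.0.16 under R 4.3.3, with two-sided p-values and Benjamini-Hochberg adjustment across every gene tested. The standard error is the absolute log2 difference divided by the square root of F. The common biological coefficient of variation was 0.0502. CPM use the TMM-scaled library sizes, and log2 differences within an siRNA use a prior count of 2. The members and the 70 gene lists were chosen with earlier results of these data known. Genes named were Klf4, Gcg, Chgb and Ttr, the 15 largest rises and 15 largest falls among protein-coding genes of at least 5 CPM in the higher batch with no overlap between batches, the 8 largest rises and falls in CPM, and up to 6 called genes of at least 1 CPM from each list by size of difference. Neighbours of Gcg, genes of the runs, genes detected in 1 batch and the list members given without a value were named after their values were seen, as were Irx1, Pou3f4, Ezh2, Hoxa2, Mirg, Heyl and Pmvk. Another 7 genes, among them Hes1, Tank, Isl1, Ccnd2, Nkx2-2 and Adcyap1, had their values taken out of the results text after their alternatives were seen, and are kept in the counts of stability. Some genes that the rule names are not reported here, and stay in the counts.

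The fit was tested on 5 sets of simulated counts, with 200 genes changed in each and at least 16486 genes tested. Of log2 changes of 1 it recovered 86.2%, of changes of 0.3 it recovered 58.1%, and 58 of 770 calls (7.53%) were false. That false share is above the 0.05 that the threshold aims at. The simulated counts held no siRNA effect and a far smaller share of changed genes than the 5490 of 16739 called in the data. These rates therefore do not describe the 5490 calls. Alternatives were other filters, scalings and tests (DESeq2 1.42.0, limma-voom from limma 3.58.1), offsets for chromosome, local, GC and length shifts, thinned counts, subsets of libraries and a replicate block. Same-numbered scramble and Klf4 siRNA libraries did not deviate together in every pair (r across genes of 0.508, 0.447, 0.75 and -0.393 for numbers 1 to 4, which hold the batch difference, and of -0.008, -0.043, -0.313 and 0.119 once batch was taken out), so numbers were not taken as pairs.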

Additional observations from a re-analysis of the deposited data

Results flagged for a closer look

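Each of the 127 genes examined under the alternatives was searched for a library far from the others among the 5 of batch 1. In 7 of them the gap of the extreme library to its nearest neighbour, divided by the range of these libraries, was above the critical value of 0.71. Chance flags about 1 in 20 groups, which here is 6.35 genes. Klf4 siRNA replicate 4 was high for Slc38a4 (598.1 CPM against 498 to 514, share 0.836), Fgl1 (13.6 CPM against 10.7 to 11.3, share 0.794) and Gnas (5294 CPM against 4884 to 4995, share 0.729). Klf4 siRNA replicate 1 was high for Sv2b (0.183 CPM against 0.121 to 0.132, share 0.822). Scramble replicate 2 was low for Heyl (0.255 CPM against 0.466 to 0.491, share 0.894). Scramble replicate 1 was high for Vamp8 (0.322 CPM against 0.208 to 0.234, share 0.773) and low for Ghsr (0.878 CPM against 1.17 to 1.28, share 0.719).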

How the results depend on the processing

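Of 127 genes examined, 1 changed direction: Hes1, higher by 0.23, had a log2 difference of -0.006 under the replicate block. The set includes 7 genes whose values were taken out of the results text after their alternatives were seen, among them Hes1, Tank, Isl1, Ccnd2, Nkx2-2 and Adcyap1. Without counting them the calls would look steadier than they are. Calls were lost by 16 genes in the Klf4 siRNA libraries alone, by 11 under the replicate block, Hes1 included, by 8 without Klf4 siRNA replicate 3 and by 0 to 6 under each other setting. Tank had an adjusted p of 0.716 with the local median taken out. The count of 5490 genes stayed within 1.5 times under other filters, scalings and tests (4069 with a mean of at least 5 CPM to 5618 with an offset for GC content and length), and leaving out 1 library gave 4019 (without Klf4 siRNA replicate 3) to 6210 (without Klf4 siRNA replicate 4). With a mean of at least 5 CPM, which tests fewer genes, 92 genes were higher and 23 lower by at least 1. The Klf4 siRNA libraries alone gave 2138 genes (1346 higher, 792 lower). At an adjusted p of 0.01, 1693 genes were lower. The replicate block, with 2 residual degrees of freedom, gave 2862 genes (1645 higher, 1217 lower, 2403 shared with the fit without it). Under the block, adjusted p were 0.134 for Prlr, 0.473 for Grb14, 0.128 for Heyl, 0.0538 for Slc38a4, 0.554 for Ccng2, 0.597 for Chga and 0.579 for Mest, whose log2 difference was 0.20. The interaction, not run for single siRNAs, without siRNA as a term, under the block, at 0.01 or without Klf4 siRNA replicate 3, passed for 17 genes with no filter and, leaving out 1 library, for 0 to 12 (12 without scramble replicate 3). The cause of these moves was not tested. Depth limits genes under 1 CPM, which held 256 of the 637 large rises and 101 of the 186 large falls.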

Other observations

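Secreted signals and guidance genes outside the groups described above also differed, in both directions. Of 34 tested genes of the TGF-beta and BMP pathway, 12 were higher and 8 lower in batch 2. Bmp7, a bone morphogenetic protein, went from 15.45 to 18.2 to 49.5 to 55.3 CPM (log2 difference 1.61, edgeR adjusted p = 1.22e-16), while the receptor gene Tgfbr1 fell from 61.96 to 83.9 to 36.9 to 44.85 CPM. Wnt5a, a Wnt ligand, rose from 0.106 to 0.321 to 3.025 to 3.399 CPM, and Shh, the hedgehog ligand, fell from 2.97 to 6.08 to 1.73 to 1.84 CPM. Axon guidance genes were higher for 15 and lower for 18 of 54 tested, with Ntn1, netrin 1, at 4.04 to 6.12 CPM in batch 1 and at 19.5 to 22.9 CPM in batch 2, and its receptor Dcc at 8.49 to 10.35 and 20.02 to 23.1 CPM.

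Surface sugars and transport moved upward more often. Heparan sulfate and glycosaminoglycan genes were higher for 19 of 36 tested and lower for 5, among them Sdc1, a syndecan, from 23.3 to 30.5 to 40.7 to 49.3 CPM, and Gpc4, a glypican, from 0.376 to 1.08 to 4.496 to 5.94 CPM. Amino acid transporters were higher for 14 of 30 and lower for 2. Slc7a8, a carrier of large neutral amino acids, went from 3.12 to 3.403 to 11.7 to 13.7 CPM, and Slc38a4, the most abundant of those that rose, from 498 to 598 to 666 to 704 CPM. Of 28 tested immediate early genes, Ier2, Egr2, Egr4 and Atf3 were higher (14.3%) and Arc lower (3.57%). Both shares were below those of all genes (17.1% and 15.7%), and 3 in all differed without scramble replicate 4. The median log2 difference was nonetheless 0.31, and 3 of the 28 rose by at least 1, beside 3.81% of all tested genes. Their sum spread widely within batch 1, from 1485 to 2448 CPM, and ran from 1972 to 2120 CPM in batch 2.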
